A study of Mus musculus with 2 samples.

Results

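Myog-high cells are single cells of mouse embryos in which Myog, the transcription factor that drives committed myoblasts into differentiation, was read at high level. They were chosen by counts alone: at least 5 UMIs (unique molecular identifiers, each standing for 1 captured RNA molecule) of Myog and no UMI of the endothelial genes Pecam1 and Cdh5, among cells with at least 1000 UMIs and at most 10% of them mitochondrial. The rule found 975 cells among the 22086 cells that passed these filters, of 27766 barcodes in all. They were divided by the summed UMIs of Myh3, the embryonic myosin heavy chain, and Mymx (myomixer), a membrane peptide of myoblast fusion. Cells with 0 UMIs of both are called early, cells with 1 or 2 middle, and cells with 3 or more late. Myog, Mymx and Myh3 chose and divided the cells. Mylpf, the light chain of fast myosin, was named as their marker with earlier results of these data known. The levels of all of these genes are thus given as a description.

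The study asked what becomes of Myf5-expressing cells when the splicing factor SRSF2 is deleted in them. Both libraries came from E14 embryos, whose trunks and limbs, without heads and viscera, were dissociated and sorted for tdTomato (tdT) before 10x Genomics capture. One library is titled SRSF2f/f with Myf5-Cre and tdT and the other SRSF2f/w with Myf5-Cre and tdT, and both thus carry a floxed Srsf2 allele, Cre under the Myf5 promoter and the Cre-dependent reporter. There was 1 library for each title, the number of embryos behind it was not given in the sources used here, and every share below is a share inside the tdT gate.

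The labels of the 2 libraries contradict one another. The summary that goes with the f/f title bears a wild-type name and that of the f/w title a knockout name, and Srsf2 (chromosome 11, 116849901 to 116853094, minus strand, GRCm38) was the lower in the f/w-titled library, with 153 UMIs per 1000000 UMIs (95% interval 150.5 to 155) against 219 (216 to 221) over all kept cells. Within Myog-high cells the levels of Srsf2 were 215 (207 to 222) in the f/f-titled and 182 (157 to 209) in the f/w-titled library. The libraries are therefore named by their titles throughout, and no difference between them is read as an effect of genotype. Levels are sums of UMIs over cells per 1000000 UMIs of the same cells (CPM), and intervals cover counting error only, not the spread between embryos. With 1 library a title there was no test, and a call is a ratio of 2-fold or more among genes with at least 20 UMIs expected in each group.

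Skeletal muscle cells form when cycling Pax7 progenitors turn on the basic helix-loop-helix factors MyoD and myogenin, leave the cell cycle and fuse into multinucleated fibers. Myogenin and MyoD bind E-boxes, the letters CANNTG, together with E proteins, and with MEF2 factors they turn on genes of the contractile apparatus. Fusion needs 2 muscle membrane proteins, myomaker (Mymk) and myomixer, and the first fibers carry embryonic and slow isoforms of the contractile proteins.

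The windows of 250 bases before the start site are shown for Myog, for Myh3 and Mylpf as genes of the contractile apparatus in the order described below, and for Chrna1, the alpha subunit of the muscle acetylcholine receptor. They were taken from RefSeq (GRCm38.p6), written 5′ to 3′ on the strand of the gene, with every CANNTG in capitals.
Myog: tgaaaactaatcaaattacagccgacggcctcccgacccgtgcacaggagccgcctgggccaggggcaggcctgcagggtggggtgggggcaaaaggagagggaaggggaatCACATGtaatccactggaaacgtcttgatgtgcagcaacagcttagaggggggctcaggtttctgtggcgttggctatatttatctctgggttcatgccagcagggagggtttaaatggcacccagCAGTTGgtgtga
Myh3: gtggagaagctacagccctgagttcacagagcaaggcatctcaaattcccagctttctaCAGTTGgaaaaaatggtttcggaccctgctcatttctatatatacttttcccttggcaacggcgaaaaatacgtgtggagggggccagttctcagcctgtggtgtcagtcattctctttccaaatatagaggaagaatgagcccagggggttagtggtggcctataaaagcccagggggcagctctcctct
Mylpf: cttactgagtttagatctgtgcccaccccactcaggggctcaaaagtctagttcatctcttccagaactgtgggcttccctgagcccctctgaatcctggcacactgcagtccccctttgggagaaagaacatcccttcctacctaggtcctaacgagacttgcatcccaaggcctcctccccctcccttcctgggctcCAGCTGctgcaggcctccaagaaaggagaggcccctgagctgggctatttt
Chrna1: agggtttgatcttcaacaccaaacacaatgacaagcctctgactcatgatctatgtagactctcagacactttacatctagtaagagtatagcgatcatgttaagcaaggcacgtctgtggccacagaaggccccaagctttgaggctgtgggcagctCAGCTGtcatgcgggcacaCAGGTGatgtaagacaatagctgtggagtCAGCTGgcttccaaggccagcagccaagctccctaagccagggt
The Myog window (chr1:134289754-134290003, plus strand) held 2 matches, which begin 138 and 12 bases before the start, and its last 15 bases lie in the first exon of a longer annotated transcript. The Myh3 window (chr11:67078050-67078299, plus strand) held 1 match, 191 bases before the start, and no annotated gene. In Mylpf (chr7:127211358-127211607, plus strand) the window held 1 match at 51 bases and lies within an intron of a longer annotated transcript. The Chrna1 window (chr2:73580339-73580588, minus strand) held 3 matches, at 92, 73 and 44 bases, and no annotated gene. The letters CAGCTG, one form of CANNTG, stood once in the Mylpf window, 2 times in the Chrna1 window and in neither of the others. Both motifs read the same on both strands. Of 32851 windows of this length before RefSeq starts, 66.2% held CANNTG and 13.0% held CAGCTG, so that the matches are a description of these windows and show no binding.

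The f/f-titled library held most of the Myog-high cells. Of its 12144 kept cells (152040160 UMIs, median 10957 UMIs a cell), 920 were Myog-high, a share of 7.58% (exact Clopper-Pearson interval 7.11 to 8.06%). Of the 9942 kept cells of the f/w-titled library (125275512 UMIs, median 9863), 55 were Myog-high, a share of 0.553% (0.417 to 0.719%). The share was thus 13.7-fold lower in the f/w-titled library, a log2 ratio of -3.78 (-4.17 to -3.38). The Myog-high cells were not shallow. Their median was 14122.5 UMIs (1881 to 47781) and 3215 genes in the f/f-titled library, and 16580 UMIs (4828 to 80295) and 3465 genes in the f/w-titled library, with median mitochondrial shares of 4.51% and 4.20%. Together they hold 14360059 and 1045967 UMIs, so that each value of the f/w-titled library rests on far fewer molecules. The libraries share 74 barcode sequences, and 5 of the Myog-high cells of the f/f-titled library and 0 of the f/w-titled library carry a shared one.

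Some Myog-high cells hold RNA of another cell type. Over 9 lists of markers fixed for endothelium, immune cells, cartilage, bone, neurons, Schwann cells, pericytes, epidermis and red cells, 42 cells of the f/f-titled and 5 of the f/w-titled library had at least 20 UMIs of a list. These are called mixed cells, they were defined after the data were seen, and whether each is a doublet of 2 cells was not tested. Their weight differed between the libraries: cartilage markers (all 5 detected, Col2a1 the most abundant) summed to 535 CPM in the f/f-titled and 2282 in the f/w-titled library, and to 200 and 184 without mixed cells. Bone markers summed to 115 and 1502 with Ibsp the most abundant, and to 17.8 and 19.8 without mixed cells. Red cell markers summed to 1288 and 89.9, and to 94 and 88.9 without mixed cells. Not every list met in this way. Fibroblast markers, which did not define mixed cells, summed to 616 and 905 with Col1a1 the most abundant, and to 538 and 92.6 without mixed cells, where 55 cells of the f/f-titled library still had at least 20 UMIs of them. Immune markers summed to 6.69 and 36.3, and to 2.87 and 33.4 without mixed cells. Cardiac markers stood at 2.37 and 0.956 CPM, with Myl7 at 0 in both libraries, and tendon markers at 34.5 and 22.9. Leaving mixed cells out lowered cartilage and bone markers most in the f/w-titled library, and red cell markers most in the f/f-titled library. For the gene lists of the f/w-titled library, counts of calls in late over early cells are given below with and without mixed cells. Not every call that was lost is named. The part of mixed cells in other values was not tested. A looser limit was at least 1 UMI of 8 markers of other types. It was met by 79 of 920 Myog-high cells of the f/f-titled and 16 of 55 of the f/w-titled library. Counts of calls without these cells are given further below.

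The genes that chose and divided the cells, and their marker Mylpf, varied widely from cell to cell. In the f/f-titled library Myog (chromosome 1, 134289989 to 134292548) ran from the limit of 5 to 87 UMIs a cell with a median of 17, and in the f/w-titled library from 5 to 74 with a median of 21. Mymx (chromosome 17, 45600971 to 45602102) had a median of 4 UMIs and a highest value of 50 in the f/f-titled library, and a median of 3 and a highest value of 17 in the f/w-titled library. Mymx was thus present in most cells, 777 of 920 (84.5%) and 42 of 55 (76.4%). Myh3 (chromosome 11, 67078300 to 67102291) was seen in fewer, 382 cells (41.5%) and 23 cells (41.8%), and its median was 0 UMIs in both libraries although single cells reached 194 and 52 UMIs. Mylpf (chromosome 7, 127208890 to 127214298) was seen in 599 cells (65.1%) and 40 cells (72.7%), and reached 455 and 387 UMIs in 1 cell. In the f/w-titled library 1 cell thus held 387 of the 1114 UMIs of Mylpf.

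Free RNA gives a low share of such UMIs in any cell, and endothelial cells, which should lack these genes, measured it. With every cell thinned to 5000 UMIs, 4.91% of 428 endothelial cells of the f/f-titled library had a UMI of Mylpf against 48.0% of 914 Myog-high cells, and 2.60% of 1077 against 51.9% of 54 in the f/w-titled library. For Chrna1, which the rule did not use, the shares were 1.64% and 51.3% in the f/f-titled library, and for Acta1 1.4% and 19.7%. The shares for Acta1 in the f/w-titled library were 0.279% and 14.8%. Before thinning, Mylpf was seen in 14.1% of endothelial cells (median 13803 UMIs) of the f/f-titled library and 10.3% (median 17095) of the f/w-titled library. All of these shares in Myog-high cells lie above those in endothelial cells of the same library.

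Mymx came without Myh3 far more often than the reverse. Of the 920 cells of the f/f-titled library, 137 had neither, 401 had Mymx only, 6 had Myh3 only and 376 had both. The f/w-titled library held 10, 22, 3 and 20 such cells. After thinning to 5000 UMIs the numbers were 282, 352, 31 and 249 of 914 cells in the f/f-titled library and 18, 22, 4 and 10 of 54 in the f/w-titled library, so that cells with Mymx only again outnumbered cells with Myh3 only. A gene read at fewer UMIs is missed more often, and the part of that in these numbers was not tested.

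**Figure D1:**
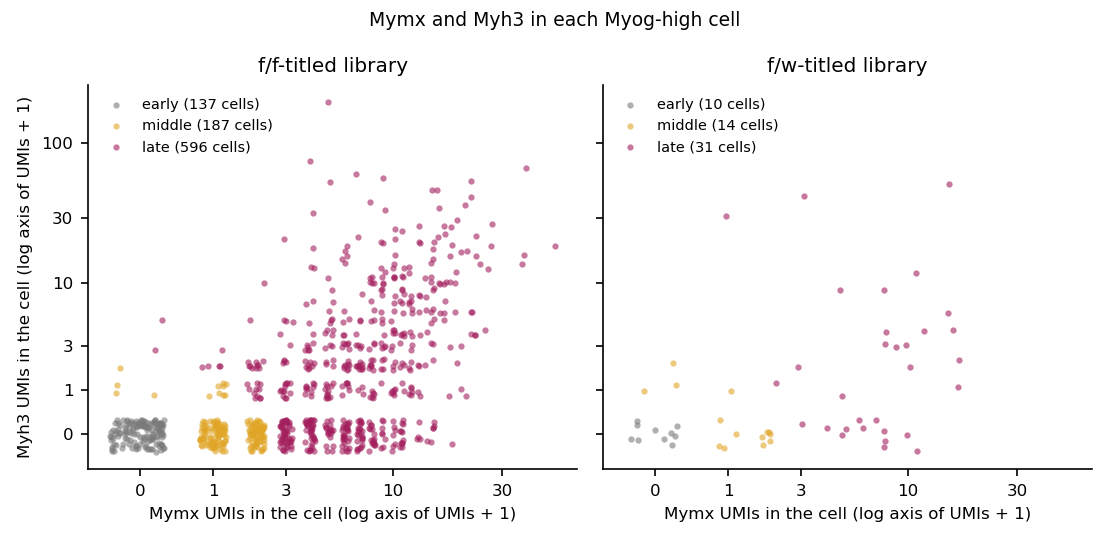
Each point is 1 Myog-high cell, placed by its UMIs of Mymx (x axis) and of Myh3 (y axis), both as UMIs plus 1 on log axes with a small jitter, for the f/f-titled library (920 cells) and the f/w-titled library (55 cells). Colour gives early, middle and late cells, and the 401 and 22 cells with Mymx only lie along the bottom.

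Genes that the division did not use differed between cells with neither gene, cells with Mymx only and cells with both. In the f/f-titled library Mymk, the fusion protein that acts with Mymx, stood at 23.1, 94 and 221 CPM in this order. Tnnt2, the troponin T of embryonic and heart muscle, stood at 141, 604 and 1668. Both were thus already higher in cells with Mymx only. Acta1, the skeletal muscle actin, stood at 4.21, 19.2 and 278 CPM, and Tnnc2, the fast troponin C, at 5.05, 10.9 and 281. These 2 genes were also higher in cells with Mymx only than in cells with neither. In each of the genes named here, most of the difference in CPM lay between cells with Mymx only and cells with both.

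By the division, 137 cells of the f/f-titled library were early (14.9%, 12.7 to 17.4%), 187 middle (20.3%, 17.8 to 23.1%) and 596 late (64.8%, 61.6 to 67.9%). Of the f/w-titled library 10 were early (18.2%, 9.08 to 30.9%), 14 middle (25.5%, 14.7 to 39.0%) and 31 late (56.4%, 42.3 to 69.7%). The intervals of each share overlap between the libraries, and those of the f/w-titled library are too wide to show a difference of this size. Median depths were 15489, 14237 and 13638 UMIs in early, middle and late cells of the f/f-titled library, and 23222.5, 16594 and 16469 in the f/w-titled library. Early cells were thus the deepest in both, and 3 of the 10 early cells of the f/w-titled library were mixed cells.

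Next to the limits of the rule, cells of the f/f-titled library with exactly 4 UMIs of Myog (55 cells, outside) had 54.0 CPM of Pax7 and 269 of Mylpf, and those with exactly 5 (34 cells, inside) had 69.6 and 79.8. Cells with a sum of 2 for Myh3 and Mymx (90 cells, middle) had 96.7 CPM of Mylpf and those with a sum of 3 (72 cells, late) had 162. The 68 cells with exactly 3 UMIs of Myog had 70.0 CPM of Mylpf. The f/w-titled library has few cells there: 4 with exactly 4 UMIs of Myog had 4929 CPM of Mylpf and 3 with exactly 5 had 17.4, while 8 with a sum of 2 for Myh3 and Mymx had 30.9 and 2 with a sum of 3 had 7135.

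Late cells of the f/f-titled library carried the contractile apparatus at far higher level than early cells, and cell cycle genes at lower level. Of 7465 genes tested, 430 were 2-fold or more higher in late cells (5.76%) and 388 were lower (5.2%), and the median log2 ratio of all was -0.07. In the f/w-titled library, with 10 early cells, 1809 genes could be tested, of which 127 were higher (7.02%) and 164 lower (9.07%), and the median was -0.03. The gene lists below leave out the genes of the rule, and the shares just given are the background for their counts. The limit of 20 expected UMIs is set on both groups together, so a gene with few early UMIs can reach it through late cells. The limit then fixes that it is called higher, as for the 10 genes tested in the f/f-titled library with 0 UMIs in a group. Counts and medians of lists that hold such genes are a description only.

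**Figure D2:**
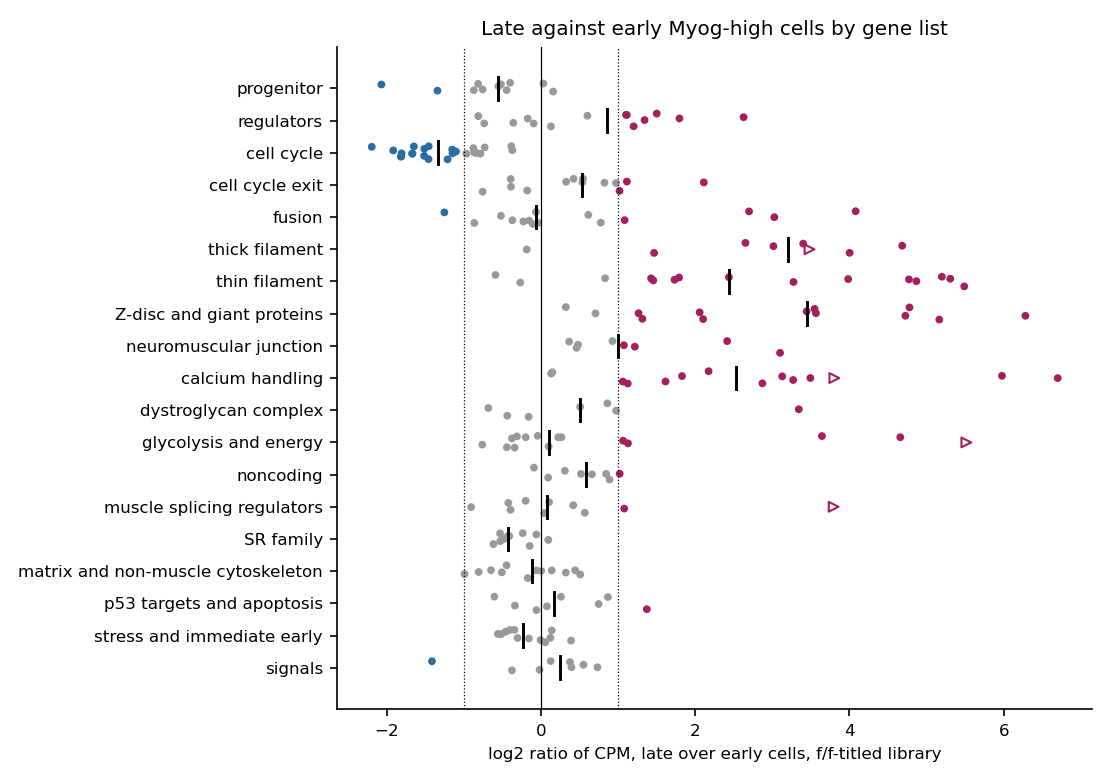
Each point is a gene with at least 20 UMIs expected in each group, placed by its log2 ratio of CPM in late (596) over early (137) cells of the f/f-titled library (x axis), in the gene lists named on the y axis. Black ticks are medians, dotted lines mark 2-fold, coloured points lie past it, and open triangles are lower bounds for genes with 0 early UMIs: contractile and calcium lists lie to the right, with medians from 2.44 to 3.44, and the cell cycle list to the left with a median of -1.33.

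Among the transcription factors and their partners, 7 of 14 tested genes were higher in late cells, 0 were lower and the median log2 ratio was 0.85. Mef2c, a MEF2 factor that acts with myogenin on contractile genes, had 69.0 CPM in early and 427 in late cells (log2 ratio 2.63, 2.40 to 2.86), and its ratio was 2.68 (2.03 to 3.39) in the f/w-titled library. Tead4, Klf5, Hes6 and Mef2a had log2 ratios of 1.5, 1.80, 1.20 and 1.11 in the f/f-titled library. Myod1, the factor that acts before myogenin, went the other way between the libraries, with 229 and 178 CPM in early and late cells of the f/f-titled library (-0.36, -0.50 to -0.22) and 111 and 196 in the f/w-titled library (0.81, 0.21 to 1.45). Id2, an inhibitor of basic helix-loop-helix factors, had a log2 ratio of -0.81 in the f/f-titled library, within 2-fold. Of 8 regulators tested in the f/w-titled library 3 were higher, Mef2c, Mef2a (1.18) and Hes6 (1.97), and 2 were lower, Id1, of the same Id family (-1.31), and Id2 (-1.77). Without mixed cells the same 3 of 7 were higher, and Id1 (-1.68) and Id3 (-1.39) were lower.

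Of 11 progenitor genes tested, 2 were lower in late cells, 0 were higher and 9 were within 2-fold, with a median log2 ratio of -0.55 and a highest ratio of 0.16. Pax7, the factor of muscle progenitors, had 51.8 and 12.3 CPM (-2.07, -2.45 to -1.69), and Msc (musculin) had a ratio of -1.34. After thinning to 5000 UMIs, Pax7 was seen in 20.6% of 136 early, 9.34% of 182 middle and 6.38% of 596 late cells of the f/f-titled library, against 1.87% of endothelial cells. Some early cells with high Myog thus also had a UMI of Pax7. The lists that define mixed cells hold no progenitor genes, and whether such cells are doublets with a Pax7 progenitor was not tested. Dlk1, an imprinted surface protein of progenitors, stood at 479 and 327 CPM, within 2-fold. It was the 1 gene of the list tested in the f/w-titled library and was lower there (-1.58), but not without mixed cells (-0.36). Among secreted signals, with 0 higher and 1 lower of 8 tested and a median of 0.25, Igfbp5, which binds insulin-like growth factors, had a log2 ratio of -1.41 in the f/f-titled and -1.98 in the f/w-titled library. Without mixed cells the latter was -1.41 on too few UMIs for a call.

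The cell cycle list was lower as a whole in late cells. Of its 24 genes, all tested, 16 were 2-fold or more lower and 0 were higher, with a median log2 ratio of -1.33 and a range from -2.19 to -0.37. Mki67, the antigen of cycling cells, stood at 317 CPM in early and 90.7 in late cells (-1.81, -1.95 to -1.66), and at 167 and 74.9 in the f/w-titled library (-1.16, -1.82 to -0.51). In that library 4 of 8 tested genes of the list were lower, and without mixed cells 1 gene could be tested and 0 were called, with Mki67 at -1.48 on too few UMIs. Pcna, the clamp of DNA polymerase, had a log2 ratio of -1.82 and Rrm2, which makes deoxynucleotides, one of -1.91. The CDK inhibitor Cdkn1a (p21), which MyoD turns on as cells leave the cycle, lay in the other direction, with 162 and 699 CPM (2.11, 1.96 to 2.26) in the f/f-titled library and 242 and 733 (1.60, 1.22 to 2.0) in the f/w-titled library. Of 13 tested genes of cell cycle exit, 3 were higher (Cdkn1a, Gadd45g at 1.11 and Rb1, the retinoblastoma protein, at 1.02) and 0 lower, with a median of 0.54. Of 9 tested in the f/w-titled library the same 3 were higher and 2 were lower, Ccnd2, a D-type cyclin (-3.89), and Btg2 (-1.04). Without mixed cells the 3 were again higher and 0 of the 6 tested were lower. Cdkn1c (p57), with 8931 and 13039 CPM, was within 2-fold at 0.55.

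Cell cycle RNA and Cdkn1a overlapped in single cells. As counted, Mki67 and Top2a, the topoisomerase of mitotic chromosomes, were found together in 84 of 137 early, 96 of 187 middle and 126 of 596 late cells of the f/f-titled library, and 61, 87 and 122 of these also had a UMI of Cdkn1a. After thinning to 5000 UMIs, 47.1% of early, 37.9% of middle and 13.8% of late cells had both Mki67 and Top2a, and 17.6%, 27.5% and 11.4% had all 3 genes. The share with all 3 was highest in middle cells of this library (21.1 to 34.6%), but its interval overlaps that of early cells (11.6 to 25.1%). In the f/w-titled library, with 10, 13 and 31 thinned cells, the shares were 20%, 15.4% and 16.1%, highest in early cells. Endothelial cells of the f/f-titled library had both Mki67 and Top2a in 22.7% and all 3 in 11.0% of cells. In endothelial cells of the f/w-titled library the shares were 21.1% and 13.0%. The genes are thus not particular to muscle, and no cycling of a single cell is read from these counts.

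Fusion genes went in both directions. Of 15 tested beside Mymx, 4 were higher, 1 was lower and 10 were within 2-fold, with a median log2 ratio of -0.06. Mymk had 23.1 CPM in early and 189 in late cells of the f/f-titled library (3.03, 2.64 to 3.44). In the f/w-titled library it had 0 UMIs in the 10 early cells and 198 CPM in late cells, at least 17.7-fold higher against a floor of 3 counts over the early cells. Elmo1, part of the exchange factor for Rac that acts in fusion, had 2.10 and 35.6 CPM (4.08, 2.84 to 5.71), and Cav3, the muscle caveolin, a log2 ratio of 2.70. The adhesion proteins Cdh15 (M-cadherin) and Jam3 had ratios of 0.61 and 0.78, and Itgb1, Rac1 and Cd9 of -0.23, -0.10 and -0.04. Of 7 fusion genes tested in the f/w-titled library 3 were higher, among them Cdh15 (1.58) and Jam3 (1.37), and Cd9 was lower (-1.80), and without mixed cells 2 of 3 were higher and 0 lower.

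The contractile lists had medians far above that of all genes. In the thin filament 12 of 15 tested genes were higher in late cells and 0 lower, with a median log2 ratio of 2.44. Acta1 stood at 4.21 CPM in early and 189 in late cells (5.49, 4.61 to 6.55), and Tnni1, the slow troponin I, at 11.4 and 450.0 (5.31, 4.76 to 5.91). Actc1, the cardiac actin that embryonic skeletal muscle also uses, had 1495 CPM already in early cells and 4102 in late cells (1.46, 1.41 to 1.51). The 3 genes within 2-fold included Tpm1 (-0.27) and Tpm3 (-0.59), tropomyosins that other cells also make. Of the same list 11 of 13 genes tested in the f/w-titled library were higher and 1 was lower, with a median of 3.49, and without mixed cells 10 of 12 were higher and 0 lower.

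In the thick filament 7 of 8 tested genes were higher and 0 lower, with a median of 3.21. Myl1, an alkali light chain of fast muscle, stood at 23.6 and 606 CPM (4.68, 4.30 to 5.09), Myl4, the embryonic one, had a ratio of 4.0 (3.56 to 4.48), and Myh8, the perinatal heavy chain, one of 1.47. Mybpc1, the slow myosin-binding protein C, stood apart at -0.18 (-0.54 to 0.18). Of 13 tested genes of the Z-disc and of giant proteins, 11 were higher and 0 lower, with a median of 3.44. Among them Ttn (titin) had 325 and 1394 CPM (2.10, 2.0 to 2.21), Neb (nebulin) 178 and 616 (1.79), and Actn2, the alpha-actinin of Z-discs, 2.10 and 57.7 (4.78, 3.55 to 6.41). Unc45b, the chaperone of muscle myosin, had 1 UMI in early cells and 297 in late cells, a log2 ratio of 6.28 with a wide interval from 3.79 to 11.59. In the f/w-titled library 2 of 15 thick filament genes and 5 of 22 Z-disc genes could be tested. All of them were higher, and without mixed cells 2 and 4. Myl1 had 3.72 CPM in early cells there, so that it reached the limit of expected UMIs through late cells. These counts are a description only.

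Genes of calcium handling behaved like the contractile lists, with 12 of 14 tested higher, 0 lower and a median of 2.52. Sln (sarcolipin), a small inhibitor of the calcium pump, had a log2 ratio of 5.98 (4.43 to 8.26), and Atp2a1, the calcium pump of fast fibers, had 11.8 and 103 CPM (3.13, 2.59 to 3.73). Atp2a2, the pump found in most cell types, differed little at 0.15 (-0.02 to 0.32). At the neuromuscular junction 4 of 8 tested genes were higher and 0 lower, with a median of 1.0. Chrna1, whose window is printed above, had 42.9 and 229 CPM (2.41, 2.13 to 2.72) in the f/f-titled and a ratio of 3.37 in the f/w-titled library, and Chrng, the gamma subunit of the fetal receptor, had a ratio of 3.1. Dok7, which activates the kinase MuSK, had a ratio of 0.37 and stayed within 2-fold. Few genes could be tested in the f/w-titled library, with 2 of 3 higher in calcium handling and 1 of 2 at the junction, and without mixed cells 0 tested and 2 of 2.

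The f/f-titled library gave 5 calls among glycolysis and energy genes and at most 1 in each of 6 further lists. In glycolysis and energy 5 of 15 tested genes were higher, 0 were lower and the median was 0.10. They were Cox6a2 and Cox8b, muscle subunits of cytochrome oxidase, the muscle enzymes Pgam2 and Eno3, and Ckb, the brain form of creatine kinase. Cox6a2 had 0 early UMIs and 57.7 CPM in late cells, at least 45.7-fold higher, and Gapdh, a glycolytic enzyme of all cells, had a ratio of 0.10. Of the dystroglycan complex 7 genes were tested, of which 1 was higher and 0 lower, with a median of 0.51. Of the noncoding RNAs 1 of 8 was higher (Gm15640 at 1.02), with a median of 0.59. The p53 targets had 1 of 8 higher (Ccng1 at 1.37, median 0.17). The lists of matrix and non-muscle cytoskeleton (12 tested, median -0.12), stress and immediate early genes (12 tested, median -0.23) and chemokines and migration (3 tested, median -0.02) had 0 calls in that library.

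The calls of the f/w-titled library in these lists were in part others, and most of them were not made without mixed cells, where fewer genes were tested. Of 9 matrix and non-muscle cytoskeleton genes 2 were lower, Fn1, fibronectin (-3.68), and Sparc, a collagen-binding protein (-1.73), and without mixed cells 2 of 7, Actg1 (-1.04) and Tubb5 (-1.07). Of 11 stress and immediate early genes Hspa1a, a heat shock chaperone (1.09), was higher and Ier2 (-1.15) lower, and without mixed cells 0 of 6 were called. H19 (-1.27) and Neat1 (-4.26) were lower of 5 noncoding RNAs, against 1 higher, Rian (1.09), of 4 without mixed cells. Of 12 glycolysis and energy genes 3 were higher, Eno3 (3.2), Pgam2 (3.34) and Ckb (1.68), which were also higher in the f/f-titled library, and without mixed cells Ckb (1.13) was higher and Pgam1 (-1.22) lower of 10.

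Splicing factors gave few calls in the f/f-titled library. Of the 10 SR proteins tested 0 were past 2-fold, and log2 ratios lay between -0.62 and 0.10 with a median of -0.42, below the -0.07 of all genes tested. Srsf2 stood at 273 and 189 CPM in early and late cells of the f/f-titled library (-0.53, -0.66 to -0.40) and at 275 and 136 in the f/w-titled library (-1.01, -1.50 to -0.52). Its ratio was thus below 0 in both. Of 9 SR genes tested in the f/w-titled library 2 were past 2-fold lower, Srsf2 among them, with a median of -0.31. Without mixed cells 0 of 7 were, and Srsf2 had a ratio of -0.97 (-1.59 to -0.32). Of 10 splicing regulators of muscle 2 were higher in the f/f-titled library: Srpk3, a muscle kinase of SR proteins, with 0 early UMIs and at least 13.9-fold higher, and Rbm20, the regulator of titin splicing, at 1.08. Ptbp1, which represses muscle exons, had 64.0 and 34.2 CPM (-0.90, -1.19 to -0.62), and Rbfox2 a ratio of 0.57. Of 7 of these regulators tested in the f/w-titled library Celf2 was higher (1.24) and Mbnl1 (-1.68) and Mbnl2 (-1.45) were lower, and without mixed cells 0 of 4 were called.

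Genes with 0 UMIs in early cells have no finite ratio and were ranked first, which filled the 10 highest places. Their bounds do not show that they lie above measured ratios such as that of Unc45b. Beside Mymx and Myh3, which the division fixes, they were Cox6a2, Casq2, Srpk3, Dct, Krt8, Art1, Mybph and Sfn. Casq2, a calsequestrin that stores calcium, was at least 14-fold higher, and Krt8, a keratin, at least 11.3-fold, with UMIs in 96 late cells. Dct, an enzyme of pigment cells, does not share this spread: 123 of its 132 UMIs lay in 1 late cell, and for Sfn, an epidermal 14-3-3 protein, 36 of 97 lay in 1 cell. The 10 lowest were Wdr76 (-2.55), Hist1h2an (-2.55), Brca1 (-2.43), Cdca2 (-2.42), Col15a1 (-2.38), Clspn (-2.35), Hist1h2bj (-2.27), Tk1 (-2.24), Esco2 (-2.19) and Zfp367 (-2.19). Brca1, Clspn, Tk1, Esco2 and the histones act in DNA replication or repair, and Col15a1 is a collagen of basement membranes.

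The sizes of the steps along the division differed between genes. The cells of the f/f-titled library fall into 137, 187, 336 and 260 cells with 0, 1 or 2, 3 to 9 and 10 or more UMIs of Myh3 and Mymx. Chrna1 stood at 42.9, 92.1, 171 and 298 CPM in this order, and Cdkn1a at 162, 356, 533 and 899. Both were higher at every step. Mylpf stood at 37.0, 69.8, 243 and 1713, Tnnc1, the slow and cardiac troponin C, at 7.58, 13.7, 19.4 and 433, and Acta1 at 4.21, 10.7, 31.1 and 379. These genes too were higher at every step, and the greater part of their difference in CPM lay in the last step. Pax7 stood at 51.8, 20.6, 15.3 and 8.74, and Mki67 at 317, 268, 129 and 44.7. Both were lower at every step, Pax7 most of all at the first.

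**Figure D3:**
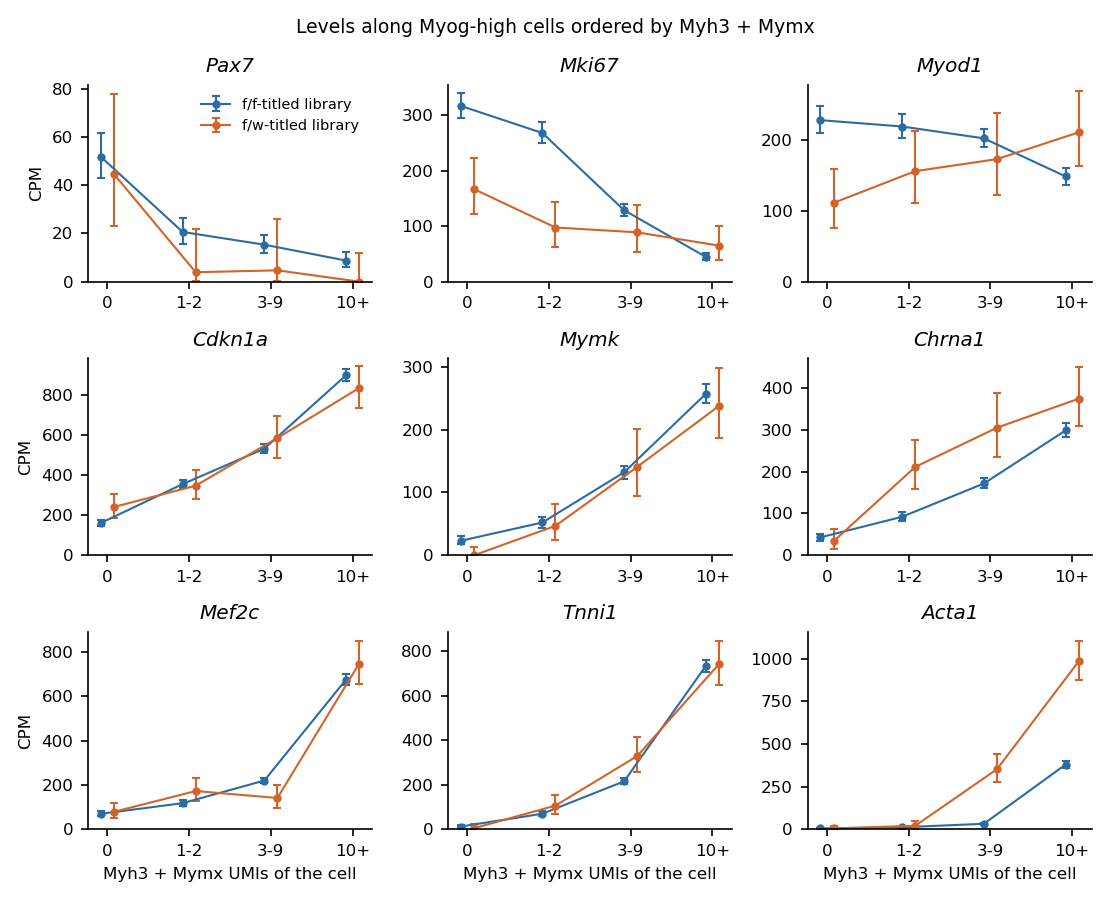
Levels of 9 genes (y axes, CPM on a linear scale from 0, with 95% Poisson intervals) over 4 bins of the summed UMIs of Myh3 and Mymx per cell (x axis) in both libraries. In the f/f-titled library Chrna1 and Cdkn1a are higher in each bin, Acta1 is 379 in the last bin against 31.1 in the one before, and Mki67 and Pax7 are lower in each bin. The points of Acta1 in the third and last bins of the f/w-titled library, 351 and 985, are 24.1 and 305 without the 1 cell of each bin with the most UMIs of Acta1.

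Between middle and early cells of the f/f-titled library fewer contractile genes passed 2-fold than between late and middle cells. Of 7521 genes tested 87 were higher (1.16%) and 49 lower (0.652%), among them 2 of 11 tested thin filament genes (median 0.46), 1 of 5 of the thick filament (median 0.64) and 0 of 24 of the cell cycle. Tnnt2, at 141 and 357 CPM, and Tnni1, at 11.4 and 69.1, were already higher in middle cells. Between late and middle cells 280 of 8031 were higher (3.49%) and 269 lower (3.35%), and here 10 of 15 thin filament and 8 of 9 thick filament genes were higher and 14 of 24 cell cycle genes lower. More contractile genes were tested here, since they could reach the limit of expected UMIs through late cells. Late cells also have no upper limit of Myh3 and Mymx, while middle cells have at most 2 UMIs. The part of this in the larger counts was not tested.

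In the f/w-titled library, with 10, 14, 13 and 18 cells in the 4 bins, intervals were wider and not every gene kept the order. Acta1 stood at 3.72, 19.5, 351 and 985 CPM, Mylpf at 22.3, 78.2, 886 and 2922, and Chrna1 at 33.4, 211, 305 and 374. Single cells carried much of Acta1 and Mylpf. Of the 303 UMIs of Acta1 in the last bin 216 came from 1 cell, and without it that bin stood at 305 CPM (244 to 376). Of the 75 in the third bin 70 came from 1 cell, whose summed UMIs of Myh3 and Mymx were 3, at the lower edge of the bin, and without it that bin stood at 24.1 (7.83 to 56.3). The same cells gave 387 of 899 and 139 of 189 UMIs of Mylpf, and without them the last bin stood at 1794 CPM and the third at 241 CPM. All 5 UMIs of Acta1 in the second bin were in 1 cell too, so that its levels in the f/w-titled library rest on few cells in every bin. Mef2c stood at 78.0, 172, 141 and 748, lower in the third bin than in the bin before, and Mki67 at 167, 97.7, 89.0 and 65.0.

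Of the 1809 genes tested in both libraries, 74 were called higher in late cells of the f/f-titled and 127 of the f/w-titled library, and 70 were called in both (94.6% of the first and 55.1% of the second). Of genes called lower, 49 and 164, 20 were shared (40.8% and 12.2%), and 0 genes were called in opposite directions. Without mixed cells 814 genes were tested in the f/w-titled library, of which 63 were higher (7.74%) and 25 lower (3.07%), and all were tested in the f/f-titled library too, which shared 44 higher (91.7% of its 48 and 69.8% of the 63) and 10 lower genes (62.5% of its 16 and 40% of the 25). The long list of lower genes in the f/w-titled library thus shrank from 164 to 25 when 3 mixed early cells, 1 mixed late cell and the genes too rare to test without them were left out.

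**Figure D4:**
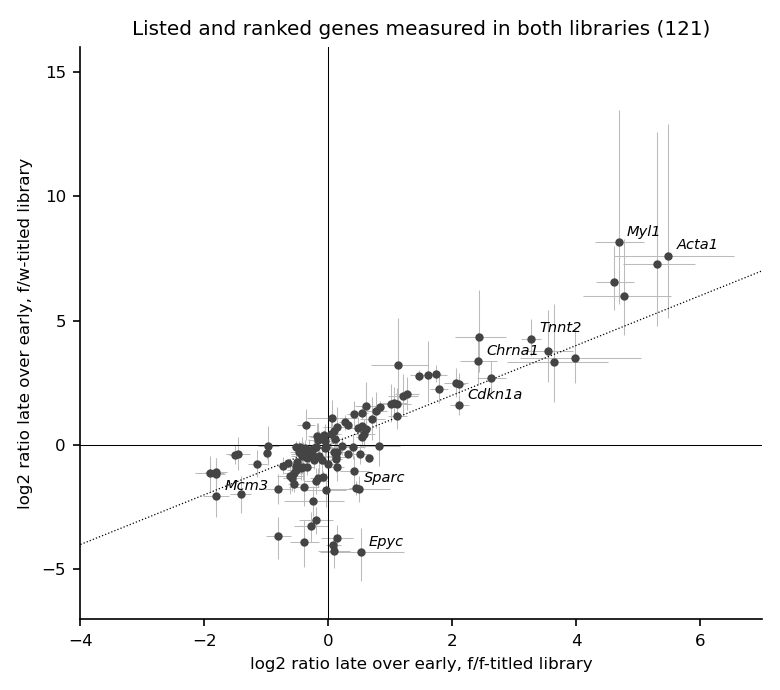
Each point is 1 of 121 listed or ranked genes tested in both libraries, by its log2 ratio of late over early cells in the f/f-titled (x axis) and f/w-titled library (y axis), with 95% counting intervals and a dotted line at equal ratios. Acta1 lies farthest to the right and Myl1 highest, and Sparc, at 0.44 and -1.73, is among the genes low on the y axis and near 0 on the x axis.

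Compared as a whole, few genes passed 2-fold between the Myog-high cells of the 2 libraries. Of 5141 tested, 75 were 2-fold or more higher in the f/w-titled library (1.46%) and 54 lower (1.05%), and without mixed cells 24 (0.555%) and 70 (1.62%) of 4323. With a fold of 1.5, 229 of the 5141 were higher and 321 lower. Between late cells alone 14 of 3159 tested genes were 2-fold or more higher and 58 lower. Over all Myog-high cells Myog itself stood at nearly the same level in both libraries, with a log2 ratio of -0.01 (-0.09 to 0.07), which the rule constrains. The regulators (14 tested, median 0.02) and the SR family (10 tested, median -0.14) had 0 calls, and the cell cycle list 1 lower of 22 with a median of -0.29. Without mixed cells 2 of 13 regulators were called, Rbm38, an RNA-binding protein, higher (1.10) and Mef2d, of the same family as Mef2c, lower (-1.30), and still 0 of 10 SR genes and 1 of 21 of the cell cycle list. Other lists had more calls. Among 12 matrix and non-muscle cytoskeleton genes 2 were higher and 1 lower, and among 12 fusion genes 1 was higher and 2 lower. Without mixed cells 0 and 4 of 12 matrix and cytoskeleton genes were higher and lower, and 0 and 1 of 11 fusion genes. Mef2c had a ratio of 0.03, Cdkn1a of -0.08 and Tnni1 of 0.05.

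The heat shock gene Hspa1a, an inducible chaperone of the Hsp70 family, was the listed gene with the highest ratio. It stood at 29.5 CPM in the f/f-titled and 203 in the f/w-titled library (log2 ratio 2.78, 2.54 to 3.02), and at 2.99 without mixed cells. Its UMIs came from 142 of 920 and 22 of 55 cells, and without the 1 cell that held 54 of the 212 in the f/w-titled library the ratio was 2.38. Hspa1b, its near-identical neighbour with which it may share reads, had a ratio of 2.15, and of 12 stress genes 2 were higher, 0 lower and the median was 0.63. Induction of these genes while cells were dissociated and sorted, or another difference between the 2 preparations, cannot be told apart from the titles.

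Of the contractile lists, 4 of 14 thin filament genes (Acta1, Tnnt3, Tnnc1 and Tnnc2), 0 of 6 thick filament genes and 1 of 10 Z-disc genes (Ankrd1 at 1.28) were 2-fold or more higher in the f/w-titled library and 0 lower, in part through 1 cell. Without mixed cells 5 of 14, 1 of 5 and 1 of 9 were higher. Mylpf, the marker of Myog-high cells, stood at 595 and 1065 CPM in the f/f-titled and f/w-titled libraries, within 2-fold (0.84, 0.75 to 0.93). Acta1 stood at 122 and 367 (1.59, 1.42 to 1.75), and Tnnt3, the fast troponin T, at 44.2 and 178 (2.01). Without the single cell with the most UMIs of each gene, which is the same late cell of 22293 UMIs for all 3, their ratios were 0.25, 0.43 and 1.17. Tnnc1 and Tnnc2, at 1.4 and 1.43, came to 0.91 and 0.85 without their highest cell. Of the 5 genes only Tnnt3 then stayed past 2-fold.

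The other genes at the ends of this comparison moved with mixed cells. Ibsp (3.72) and Spp1 (3.6), bone matrix proteins, had 1552 of 1569 and 763 of 776 UMIs in 1 cell of the f/w-titled library, and their ratios were 0.21 and 0.17 without mixed cells. Hbegf (2.74), a growth factor, and Epyc (2.65), a cartilage proteoglycan, came to 0.30 and -2.16. The globins Hba-a2, Hbb-bs, Hba-a1 and Hbb-bt, at -3.62, -3.74, -3.85 and -4.38, came to between -0.46 and 0.23. Crabp1, which binds retinoic acid, kept its ratio, with 41.5 and 6.69 CPM (-2.63, -3.95 to -1.58) and -2.53 without mixed cells, on 596 and 7 UMIs. Among the collagens Col1a1 had a ratio of 1.56 with the mixed cells and -2.36 without them, while that of Col3a1 was below 0 in both, at -1.42 and -2.44.

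**Figure D5:**
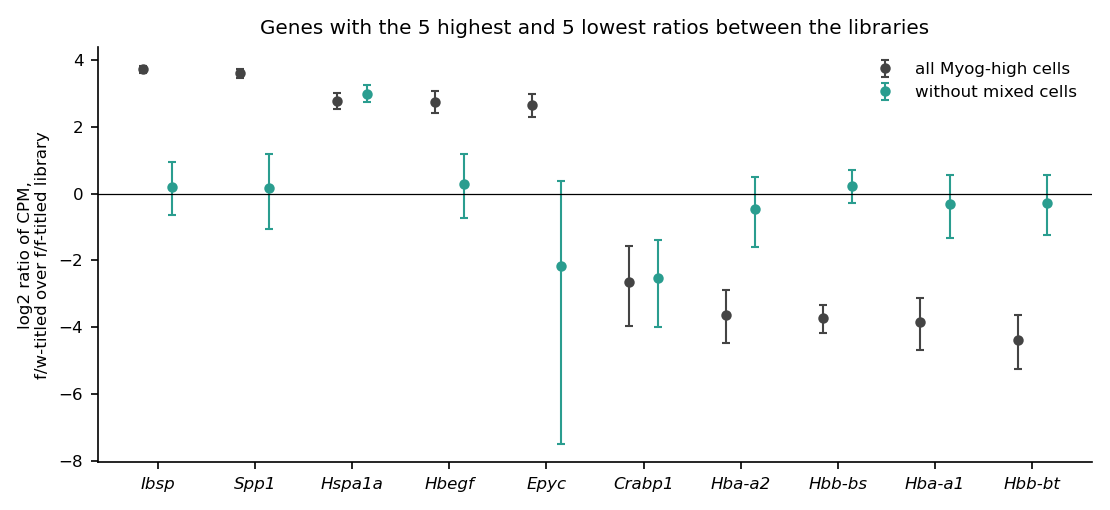
Genes at both ends of the log2 ratio of CPM in Myog-high cells of the f/w-titled over the f/f-titled library (y axis; 5 highest and 5 lowest), with 95% counting intervals, over all Myog-high cells (dark) and without mixed cells (green). Hspa1a and Crabp1 keep their place without mixed cells, and the other 8 genes move toward 0 or, for Epyc, below it.

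Against Pax7 cells, taken as cells with a UMI of Pax7 and 0 of Myog and of the endothelial genes (1041 and 61 cells), Myog-high cells had higher levels of contractile genes. At least 1 UMI of Pax7 was also seen in endothelial cells, which should lack it, in 19 of 448 (4.24%) in the f/f-titled library and 3 of 1101 (0.272%) in the f/w-titled library. Median depths were 13803 and 17095 UMIs in those endothelial cells and 14709 and 13272 in the Pax7 cells. Of 11789 genes tested in the f/f-titled library 738 were higher (6.26%) and 1377 lower (11.7%), with a median of -0.19, and 305 (5.9%) and 432 (8.35%) of 5172 in the f/w-titled library. With Pax7 cells of at least 3 UMIs of Pax7 (397 cells) 680 (6.63%) and 965 (9.4%) of 10261 were higher and lower in the f/f-titled library, and without mixed cells 765 (6.71%) and 1429 (12.5%) of 11409. Markers of other types differed between the 2 sets of cells. In the f/f-titled library the 5 fibroblast markers summed to 1382 CPM in Pax7 cells, with Col3a1 the most abundant and 202 cells at 20 UMIs or more, against 616 in Myog-high cells. The 5 cartilage markers stood at 867 and 535, the 5 red cell markers at 2048 and 1288 and the 6 immune markers at 34.2 and 6.69, and the part of these in the lower genes was not tested. Higher in the f/f-titled library were 13 of 15 thin filament, 9 of 11 thick filament and 14 of 15 Z-disc genes, and lower 11 of 18 progenitor genes, among them Pax7 itself, which the choice of the Pax7 cells fixed. With at least 3 UMIs of Pax7 these were 13 of 15, 8 of 10, 13 of 14 and 10 of 18, and without mixed cells 13 of 15, 9 of 11, 14 of 15 and 12 of 18. Here too a gene with few UMIs in Pax7 cells could reach the limit of expected UMIs through Myog-high cells, which fixes its call. In the f/f-titled library 9 tested genes had 0 UMIs in a group, and these counts are a description only. Of the 24 cell cycle genes 4 were lower, with a median of -0.50. Mymk stood at 1.34 CPM in Pax7 cells and 134 in Myog-high cells (6.64), Klhl41, a Kelch protein that steadies nebulin, had a ratio of 7.46, and Rb1 one of 3.79. Gm28653, a noncoding RNA, had a ratio of 3.81 here against 0.85 between late and early cells, and Dok7 3.79 against 0.37. Early Myog-high cells held 58.1 CPM of Gm28653 and 36.2 of Dok7. Srsf2 stood at 265 CPM in Pax7 cells and 215 in Myog-high cells (-0.30).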

How the data were processed

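Tagged cells of both libraries were sequenced by the authors with 10x Genomics chemistry. The header of the deposited matrix names Cell Ranger 5.0.0, while the submitters' processing notes list Cell Ranger 3.1.0, STAR, Seurat 3.1.1 and mm10. The deposited values are counts, whole UMIs for 32285 genes and 27766 barcodes, which the authors aggregated after down-sampling reads (571426356 and 575393483 reads before that) and left without cell filters. Barcode suffixes were matched to libraries by the cell number that each of the authors' summaries lists. Depth per library is given with the shares of Myog-high cells.

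Python 3.11.15 was used, with matplotlib 3.10.9, pandas 2.3.3, SciPy 1.17.1 and NumPy 2.4.6. UMIs were summed over cells and scaled to CPM. Intervals (95%) are Poisson for levels and Clopper-Pearson for shares. Those of ratios come from the exact split of counts, and that of the ratio of shares from a normal approximation. The code for ratios and calls was run on simulated Poisson counts, the model that the intervals assume. The simulation holds no spread between cells, so it cannot show how calls fare where single cells hold many UMIs. A fold against 0 UMIs is a bound from 3 counts over the group, also within list medians. Symbols that occur on several features took the feature with most UMIs. Of the identifiers, 32235 (99.8%) were found in GENCODE M21. No doublet caller was run.

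The members, the 20 gene lists and the markers were chosen with earlier results of these data known. Named genes are those of the rule, Mylpf, Srsf2 and list members. Also named are the 10 highest and 10 lowest late over early ratios of the f/f-titled library and the 5 at each end between the libraries. Listed genes not found by symbol (2) were left out. A gene of the dystroglycan list is not reported here. Alternatives changed the filters, the limits for Myog, late cells, expected UMIs and fold, the scaling, thinned the cells (with lower limits for Myog and late cells), or left out the deepest cells or those with markers of other types.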

Additional observations from a re-analysis of the deposited data

Results flagged for a closer look

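Cells with much Myog exist outside the rule. In the f/f-titled library 29 barcodes with at least 5 UMIs of Myog failed the filters on depth or mitochondrial share, and 70 kept cells with at least 5 had a UMI of Pecam1 or Cdh5. In the f/w-titled library these numbers were 3 and 7. None of them entered a comparison.

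For 9 listed genes the ratio of late over early cells lay above 0 in one library and below 0 in the other, with both intervals clear of 0; the difference between the libraries was not tested for any of them. Myod1 had a log2 ratio of -0.36 in the f/f-titled and 0.81 in the f/w-titled library, and -0.35 and 0.59 without mixed cells. Vim, the intermediate filament of mesenchymal cells, had -0.062 and 0.39, and -0.07 and 0.30 without mixed cells. These 2 genes kept opposite signs without mixed cells, as did the antiproliferative Btg2, with 0.42 and -1.04, and 0.35 and -0.24 without mixed cells.

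The others took the same sign without mixed cells, or turned in both libraries. Meg3, a maternally expressed noncoding RNA, had 0.66 and -0.52, and 0.69 and 0.74 without mixed cells. Malat1 had 0.31 and -0.37, and 0.35 and 0.34 without them. The matrix genes Sparc (0.44 and -1.73) and Col1a2 (0.14 and -0.88) came to 0.34 and 0.48 and to -0.33 and 0.74. Igf2, a fetal growth factor, had 0.13 and -0.54, and 0.08 and 0.39 without them, and Matn1, a cartilage protein, had 0.49 and -1.76, and -0.07 and -1.99. Mixed cells were 3 of 10 early cells in the f/w-titled library and 6 of 137 in the f/f-titled library.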

How the results depend on the processing

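Without mixed cells the ratios between the libraries changed sign for Epyc (2.65 to -2.16) and Col1a1 (1.56 to -2.36), and that of Hbb-bs came from -3.74 to 0.23. The thinned alternative changed several choices together: cells under 5000 UMIs were left out (990 and 1349), Myog-high meant at least 2 UMIs of Myog and late at least 1 of Myh3 and Mymx, so that its values do not show the effect of depth alone. The log2 ratio of the Myog-high shares stayed within its interval under all alternatives tried for it. The share of the f/f-titled library (7.58%) was 6.01% with a mitochondrial limit of 5%, 8.59% with Myog of at least 3, 6.2% with at least 10, 8.38% with these thinned cells, 8.81% without cells with a UMI of 8 markers of other types and 10.2% without mixed cells, which also leaves other cells out of the total; that of the f/w-titled library (0.553%) was 0.933% without mixed cells. The late share of the f/f-titled library (64.8%) was 61.5% with the mitochondrial limit of 5%, 57.5% and 75.6% with Myog of at least 3 and 10, 69.4% after thinning and 28.3% with late from 10 UMIs, and that of the f/w-titled library (56.4%) was 71.2% after thinning and 32.7% with late from 10 UMIs.

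Counts of genes past 2-fold moved by over 1.5 times under several alternatives, and the cause was not tested. In late over early cells of the f/f-titled library the higher genes (430) came to 278 with Myog of at least 10, 217 after thinning and 249 with 50 expected UMIs, and the lower genes (388) to 698 and 193 with Myog of at least 3 and 10, 753 with late from 10 UMIs and 189 with 50 expected UMIs. In the f/w-titled library the higher genes (127) came to 33 with Myog of at least 10, 24 after thinning, 28 without the 8 markers, 51 with 50 expected UMIs and 63 without mixed cells, and the lower genes (164) to 9, 10, 6, 44 and 25 in the same order and to 69 without the deepest cells. Between the libraries the higher genes (75) came to 43 with Myog of at least 10, 13 after thinning, 14 without the 8 markers, 28 with 50 expected UMIs and 24 without mixed cells, and the lower genes (54) to 16 after thinning and 11 with 50 expected UMIs. A fold of 1.5 gave 859 higher and 1093 lower genes for late over early cells in the f/f-titled library, 248 and 351 in the f/w-titled library, 229 and 321 between the libraries, and 1299 and 3094 against Pax7 cells. The alternatives without mixed cells, without the highest cell for a gene and with Pax7 of at least 3 were chosen after seeing the data. With 1 library a title and 55 Myog-high cells in the f/w-titled library, depth limits most of its comparisons, and no replicate could be left out. No paired analysis was possible because each title has 1 library.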

Other observations

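Some genes of the Notch pathway, picked from several lists after their values were seen, are given here for Myog-high cells of the f/f-titled library beside Pax7 cells. Dll1, a ligand of Notch receptors, stood at 41.2 CPM in Myog-high cells, with a log2 ratio of 3.88 over Pax7 cells. The receptor Notch3 and the target genes Hey1, Hes1 and Heyl had ratios of -3.07, -2.38, -1.20 and -1.17. Notch1, another receptor, had a ratio of 0.57. Between late and early cells Dll1 (0.40), Notch1 (-0.44) and Hes1 (-0.40) stayed within 2-fold.

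Some imprinted genes, picked in the same way, were measured with many UMIs. In Myog-high cells of the f/f-titled library Cdkn1c stood at 11897 CPM, Meg3 at 1744, H19 at 618, Igf2 at 483 and Dlk1 at 377. Against Pax7 cells their log2 ratios were 0.99, 0.40, -0.36, -0.14 and -0.85, all within 2-fold. Mstn (myostatin), a secreted brake on muscle growth, stood at 51.0 with a ratio of 0.98.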
